A study of Rattus norvegicus with 458 samples.

Results

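The 2 arms of the rat mir-21 hairpin, miR-21-5p and miR-21-3p, were followed through 23 tissues of Sprague Dawley rats. They were taken by name, and they are 2 of the 7534 names in the deposited miRNA table. At the sequence level 944 distinct sequences carried the name miR-21-5p and 380 carried the name miR-21-3p. The rats were naive, without any treatment, and 12 to 13 weeks old. For 19 tissues there were libraries of 10 rats (5 male and 5 female), and for testis, ovary and uterus libraries of 5 rats each. The tissues were liver, pancreas, adrenal, whole kidney, kidney cortex, kidney medulla, both parts of the stomach (glandular and non-glandular), ileum, jejunum, duodenum, heart, soleus, biceps femoris, cerebrum, cerebellum, hippocampus, brainstem, whole blood, testis, ovary and uterus. Dorsal root ganglion was sequenced as 10 technical libraries of 2 pools, 1 for each sex, so it gives no spread between rats. Its RNA was provided by Takeda Pharmaceuticals, per the authors' methods, so for this label tissue and source of RNA cannot be told apart. There was no treated or control group, and each tissue was compared with the others.

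A miRNA hairpin is cut by Drosha and Dicer into a short duplex, and as a rule 1 strand is loaded into an Argonaute protein and pairs with target mRNAs through its seed, bases 2 to 8. In mir-21 the 5p strand is the guide that accumulates, and the 3p strand is the passenger. miR-21-5p is known for its rise in injured, inflamed and fibrotic tissue and in tumours, and for targets such as Pdcd4. The ends of a mature miRNA are not fixed: variants with other ends are called isomiRs. A shift of the 5′ end changes the seed, whereas a longer or shorter 3′ end leaves it as it is.

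In the RefSeq annotation of the GRCr8 assembly the Mir21 gene, of biotype miRNA, was at chr10:71902600-71902691 on the minus strand. It overlapped no other gene of that annotation, and the nearest one was Vmp1, whose near edge lay 531 bases away. The hairpin and its arms are shown because every end reported here is placed on them. Capitals mark both arms in the hairpin and the seed in the mature sequences, which span chr10:71902653-71902674 for miR-21-5p and chr10:71902615-71902636 for miR-21-3p.
mir-21 hairpin: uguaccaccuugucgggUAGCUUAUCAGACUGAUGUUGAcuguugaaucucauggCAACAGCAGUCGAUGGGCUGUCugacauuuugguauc
miR-21-5p: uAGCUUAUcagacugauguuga
miR-21-3p: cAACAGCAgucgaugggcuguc
Among the 724 mature rat sequences of RefSeq, no other one carried either seed. Related entries, such as a precursor entry with 3358 counts and the mouse name miR-21a-5p with 977 counts, were not added to the arms.

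The smallest library held 376401 counts, the median one 4816409 and the largest 17725805. In 10 libraries the profile of all miRNAs correlated better with another tissue than with the labelled one, by more than 0.05 in Pearson's r. Of these, 4 were labelled duodenum, 3 hippocampus, 1 adrenal, 1 ovary and 1 uterus, and the tissues they resembled most were cerebrum, hippocampus or adrenal for the duodenum libraries and uterus, duodenum or ovary for the hippocampus libraries. They are called out-of-place libraries here, and values are given with and without them. The marker miRNAs of the other libraries mostly stood where the labels put them. The summed level of the hepatocyte marker list was 33952 CPM (the counts of a name in 1000000 counts of its library) in liver against 15.7 in the next tissue, the heart list was 463 CPM in heart against 2.37, the pancreas acinar list was 11290 CPM in pancreas against 868, and the testis germ cell list was 293078 CPM in testis against 3019. The erythroid list was highest in whole blood (12169 CPM), the intestine list in jejunum (403658 CPM), the striated muscle list in biceps femoris (290851 CPM), the neuron list in cerebellum (11757 CPM, from 1 of its 2 names), the squamous and smooth muscle lists in non-glandular stomach (2656 and 843868 CPM), the epithelial list in pancreas (24053 CPM), the fibroblast and stroma list in uterus (7146 CPM), the steroid-making list in testis (4369 CPM, against 662 in ovary and 8.09 in adrenal) and the leukocyte list in liver (3334 CPM, against 1516 in whole blood, which ranked 11 for it). The erythroid value leaves out the composite entry of miR-486-5p, which was at 852125 CPM in whole blood. The 2 names of the endothelial list, miR-126-3p and miR-126-5p, were under 1 CPM in every tissue mean, at most 0.677 CPM in ovary, so this list checked nothing. The list did not hold the hairpin named miR-126a, whose arms were both at 2 CPM or more in every tissue mean.

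In CPM, miR-21-5p was one of the abundant miRNAs of liver, ovary and uterus. It was scarce in brain, dorsal root ganglion and whole blood, though the direction in blood rests on the scaling. Over all libraries it took 6955219 counts, and its partner miR-21-3p took 67755. Both arms were counted in every library, with at least 1211 counts for miR-21-5p and at least 12 for miR-21-3p. In liver miR-21-5p ranged from 28915 CPM to 47486 CPM around a median of 39310 CPM, with a mean of 38456 CPM ± 6079 (SD, n = 10), and it ranked between 5 and 9 among all names. The 3 most counted names of liver were miR-22-3p, miR-192-5p and a composite entry with miR-148a-3p. In the 4 ovary libraries that resembled ovary it was 31921, 35800, 27913 and 21442 CPM, and in the 4 such uterus libraries 16555, 16155, 17770 and 15048 CPM. The highest uterus value was below the lowest ovary value. The testis libraries gave 9769, 12189, 11258, 11027 and 10140 CPM, below every one of those ovary and uterus libraries.

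**Figure D1:**
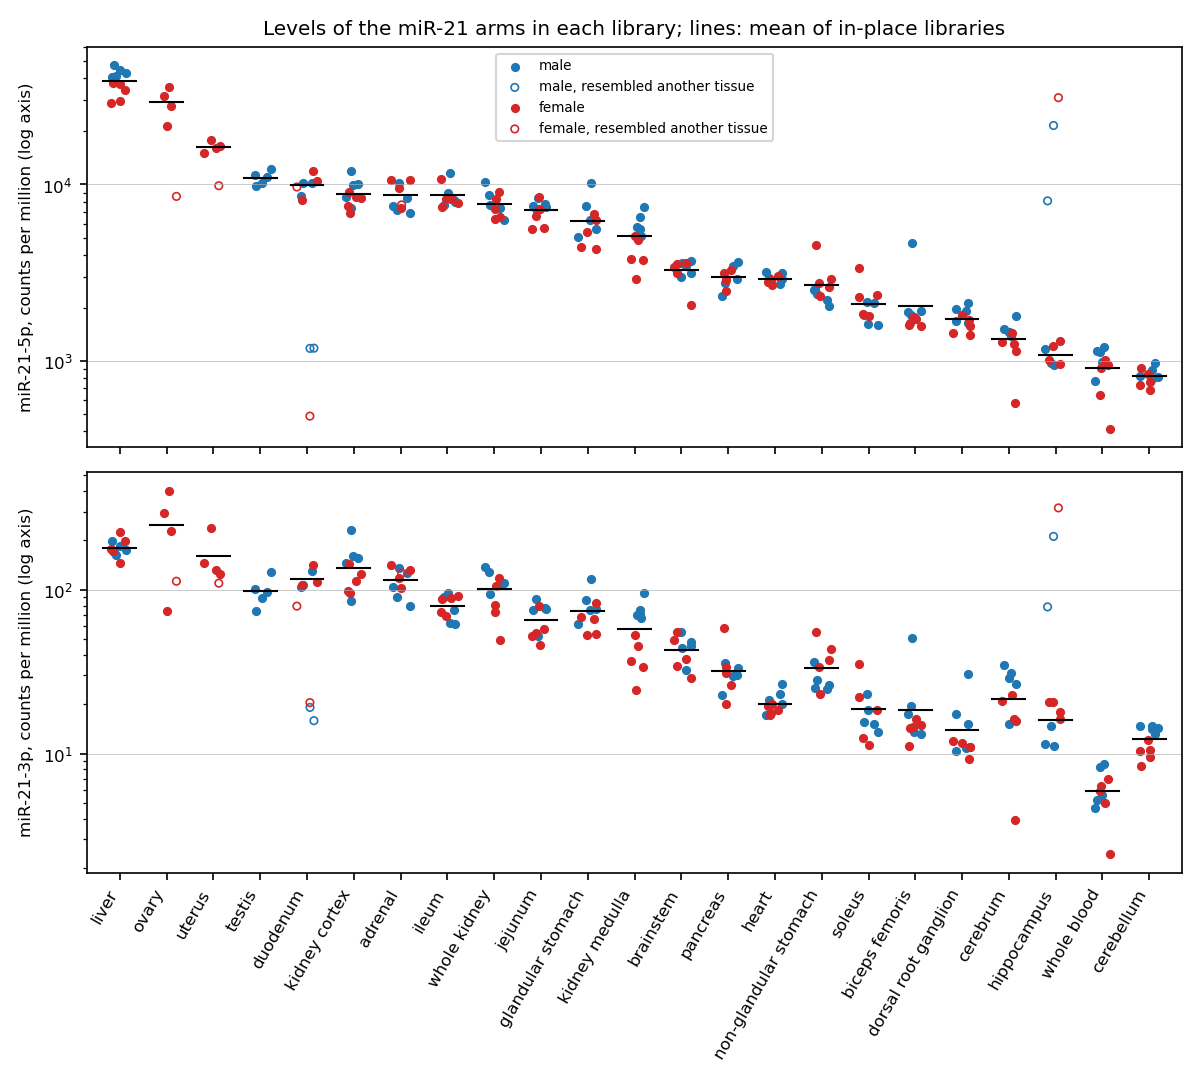
Level of miR-21-5p (upper panel) and miR-21-3p (lower panel) in each library, in CPM on a log axis, by tissue; blue marks males and red females, filled points are libraries that resembled their labelled tissue, open points are the 10 out-of-place libraries, and lines are the means of the filled points. Liver had the highest mean for miR-21-5p (38456 CPM) and ovary for miR-21-3p (249 CPM), and the open points of hippocampus and duodenum lie far from the filled ones.

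Below these stood a broad group of digestive and urinary organs and the adrenal. The mean level of miR-21-5p was 8833 CPM ± 1506 in kidney cortex, 8686 ± 1371 in ileum, 8591 ± 1484 in adrenal, 7790 ± 1321 in whole kidney, 7206 ± 992 in jejunum, 6191 ± 1736 in glandular stomach and 5081 ± 1362 in kidney medulla (SD, n = 10 each). The duodenum mean was 7211 ± 4448 over 10 libraries and 9931 ± 1385 over the 6 that resembled duodenum. Brainstem (3257 ± 481), pancreas (2981 ± 405), heart (2919 ± 172), non-glandular stomach (2693 ± 698), soleus (2102 ± 515) and biceps femoris (2040 ± 935) followed, each with n = 10. The lowest levels were 1329 ± 319 in cerebrum, 912 ± 244 in whole blood and 820 ± 86.7 in cerebellum, and the 10 technical libraries of dorsal root ganglion gave 1727 ± 235.

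Hippocampus shows what the out-of-place libraries do to a mean. Over all 10 libraries miR-21-5p was 6834 CPM ± 10747, because the 3 out-of-place libraries held 21605, 8075 and 31083 CPM. The other 7 libraries gave 1083 ± 143, between cerebrum and whole blood.

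Each tissue was also set against its neighbour in this order by permutation tests of log2(CPM + 1) between rats, with Benjamini-Hochberg adjustment over the 21 steps of an arm. For miR-21-5p 3 steps differed beyond the spread: liver above ovary (adjusted permutation p = 0.0396), kidney medulla above brainstem (adjusted permutation p = 0.0113) and biceps femoris above cerebrum (adjusted permutation p = 0.0053). Without the out-of-place libraries the step from liver to ovary was no longer among the 2 steps that passed. It sets livers of both sexes against ovaries, and the 5 female livers (28915 to 37869 CPM) overlapped the ovary libraries. Since tissues came from the same rats, the steps were also tested within rats, where biceps femoris above cerebrum and cerebrum above whole blood passed (adjusted exact permutation p = 0.0195 each), kidney medulla above brainstem did not (0.0521), and liver above ovary, with 5 rats, could not. For miR-21-3p 1 step of 21 passed, cerebellum above whole blood (adjusted permutation p = 0.0006). No step within the broad group of gut, kidney and adrenal passed for either arm.

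miR-21-3p was lower than its partner in every library and followed much the same order. Its mean was 181 CPM ± 22.2 in liver (n = 10), and in the ovary libraries that resembled ovary it was 293, 403, 227 and 74.2 CPM, a wide spread between 4 rats. Kidney cortex had 136 ± 43, adrenal 116 ± 20.9 and whole kidney 100.6 ± 26.9 CPM (SD, n = 10 each). At the lower end, cerebellum had 12.2 ± 2.35 and whole blood 5.89 ± 1.81 CPM (n = 10 each), and the blood values rest on 14 to 62 counts per library. Over the 23 tissue means of log2(CPM + 1) the arms had a Pearson's r of 0.955, which is a description of tissues that share libraries and depth.

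A level in CPM is a share of the library, and in some tissues 1 miRNA took most of it. In non-glandular stomach miR-143-3p, a miRNA of smooth muscle, took 84.1% of all counts, and in whole blood the composite entry of miR-486-5p, an erythroid miRNA, took 85.2%. So non-glandular stomach had a mean of 2693 CPM but ranked miR-21-5p between 10 and 13 among all names, while brainstem, with a mean of 3257 CPM, ranked it between 39 and 47. In whole blood, at 912 CPM, it ranked between 24 and 33. Fewer cells of a type and less RNA per cell cannot be told apart in such bulk samples.

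The comparison across tissues was therefore fitted over all 1641 names that passed the filter on low counts, with edgeR's quasi-likelihood test, upper-quartile scaling and Benjamini-Hochberg adjustment. Every tissue was set against the average of the remaining 22. miR-21-5p was called higher in 11 tissues and lower in 6, while over all names and tissues 23.4% of the tests were called higher and 11.3% lower. miR-21-3p was called higher in 12 tissues and lower in 7. Without the out-of-place libraries the counts were 13 higher and 9 lower for miR-21-5p and 12 higher and 10 lower for miR-21-3p, beside 24.4% and 12.9% over all names.

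Liver stood highest for miR-21-5p and uterus for miR-21-3p. The log2 fold change in liver was 3.39 ± 0.21 (SE, edgeR adjusted p = 5.94e-35) for miR-21-5p and 2.23 ± 0.23 (edgeR adjusted p = 1.25e-17) for miR-21-3p, and 40.2% of all names were called there. Uterus had 2.88 ± 0.29 for miR-21-5p and 2.80 ± 0.29 for miR-21-3p (16.5% of names called), and ovary 1.91 ± 0.33 and 1.62 ± 0.33 (24.9% called). Along the small intestine miR-21-5p was higher by 1.56 in ileum (31.5% of names called), 1.36 in jejunum (40.5%) and 0.67 in duodenum (35.1%), and the duodenum value was 1.42 without the out-of-place libraries and 0.53, not called, with the rat as a block. Glandular stomach had 1.21 (23.9% called), whole kidney 1.09 (29.7%) and kidney cortex 0.93 (26.6%), all called higher. For miR-21-3p the same 6 tissues were called higher, by 0.84 in duodenum to 1.56 in kidney cortex, and so was adrenal, by 0.89. Non-glandular stomach was called higher for both arms, by 0.84 and 1.12 (31.1% of names called), but under scaling by library totals alone the values were -0.88 and -0.58 and were called lower.

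The nervous system and the skeletal muscles were the tissues below the rest. miR-21-5p fell by 3.90 in cerebellum (42.6% of names called), 3.73 in cerebrum (51.7%), 2.92 in dorsal root ganglion (17.1%) and 2.67 in brainstem (52.4%) on the log2 scale. The median log2 fold change of all names was itself below 0 there, at -0.64 in cerebellum, -0.77 in cerebrum, -0.57 in dorsal root ganglion and -0.91 in brainstem. The log2 fold change was -1.47 ± 0.34 (SE) in biceps femoris, where 31.5% of names were called, and -1.43 ± 0.34 in soleus, where 30.7% were. miR-21-3p was lower in the same 6 tissues, between -3.37 in dorsal root ganglion and -1.63 in soleus, and also in heart at -1.03 (36.9% of names called), where miR-21-5p was -0.45 and not called. Hippocampus was called higher with all libraries, at 0.97 for miR-21-5p (40.7% of names called), was not called with the rat as a block (0.52), and was called lower without the 3 out-of-place ones, at -3.99 (edgeR adjusted p = 1.26e-38), close to cerebrum and cerebellum.

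In the remaining tissues the call or the direction depended on the fit. Adrenal (0.45 for miR-21-5p, 29.9% of names called) and kidney medulla (0.48, 33.3%) were not called for miR-21-5p with all libraries and were called higher without the out-of-place ones, at 0.63 and 0.65, while kidney medulla was at -0.20 under median-of-ratios scaling. Pancreas (-0.70, 42.8% called) became a called value of -0.53 without them and of -0.81 with the rat as a block, and for miR-21-3p of -0.48 and -0.74. Testis was at -0.75 (36.1% called) under upper-quartile scaling and at 1.23 under library totals alone, and whole blood at 0.30 (52.7% called) against -2.51. Without the out-of-place libraries testis was called lower at -0.56 (edgeR adjusted p = 0.0186) and whole blood higher at 0.57 (edgeR adjusted p = 5.97e-05). For these 2 tissues the sign rests on the scaling.

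**Figure D2:**
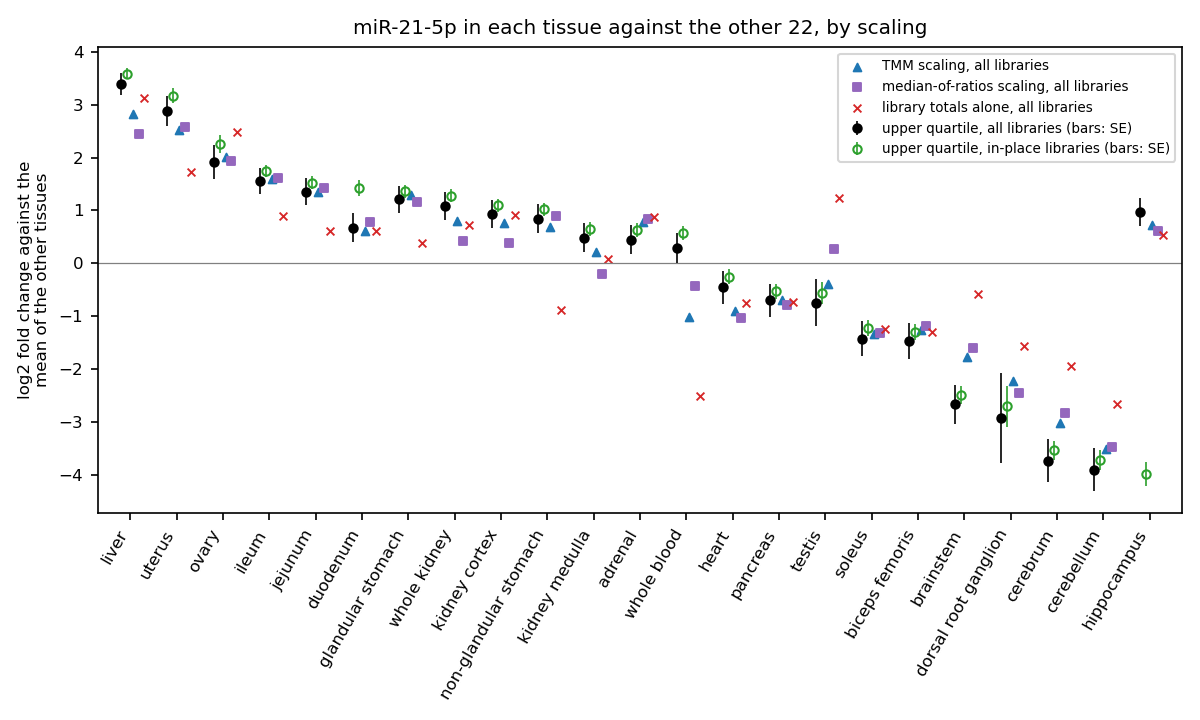
log2 fold change of miR-21-5p in each tissue relative to the average of the remaining 22, from upper-quartile scaling with all libraries (black, bars are SE), the same without the 10 out-of-place libraries (green, bars are SE), and 3 other scalings with all libraries. Liver and cerebellum keep their side of 0 in every fit, and hippocampus moves from 0.97 to -3.99. Whole blood lies at 0.30, at 0.57 without the out-of-place libraries and at -2.51 under library totals alone.

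For 12 pairs of related tissues fixed in the design, miR-21-5p was called in 3 and miR-21-3p in 2, beside 16.4% of all names pooled over the pairs. Without the out-of-place libraries the counts were 5 and 6, beside 17.1%. Liver exceeded kidney cortex by 2.36 ± 0.42 (log2, SE) in miR-21-5p but by 0.65 ± 0.39 in miR-21-3p, and the second value was not called (edgeR adjusted p = 0.239; 0.0121 without the out-of-place libraries). Whole blood was below liver by a log2 fold change of -2.97 for miR-21-5p and -2.53 for miR-21-3p. Hippocampus against cerebrum was called at 4.50 for miR-21-5p and 3.79 for miR-21-3p, and without the out-of-place libraries the values were -0.43 and -0.55 and neither was called. Within an organ, kidney cortex and kidney medulla differed by 0.43 (edgeR adjusted p = 0.703) in miR-21-5p and by 0.88 (edgeR adjusted p = 0.254, and 0.00211 without the out-of-place libraries) in miR-21-3p, and glandular and non-glandular stomach by 0.35 (edgeR adjusted p = 0.701) in miR-21-5p. Brainstem exceeded cerebrum by 1.02 and heart exceeded soleus by 0.93 in miR-21-5p, and both values were called without the out-of-place libraries (edgeR adjusted p = 1.41e-05 and 1.70e-05) but not with them (0.112 and 0.0695). Ovary against uterus was at -0.93 under upper-quartile scaling and at 0.74 under library totals alone, and without the out-of-place libraries it was called lower at -0.87 (edgeR adjusted p = 0.0434) and for miR-21-3p at -1.12 (edgeR adjusted p = 0.0206), so the upper-quartile fit and the CPM values above order these organs differently.

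The balance of the arms needs no scaling between libraries, since both are counted in the same one. The share of miR-21-3p in the counts of both arms had its lowest mean in liver, where it lay between 0.358% and 0.611% around 0.479% ± 0.091 (SD, n = 10). It was 0.647% ± 0.135 in whole blood and 0.684% ± 0.0999 in heart. At the upper end stood cerebrum with 1.54% ± 0.494, kidney cortex with 1.49% ± 0.22, cerebellum with 1.47% ± 0.277 and, in the 7 libraries that resembled hippocampus, hippocampus with 1.47%. The highest liver share was below the lowest share of kidney cortex (1.15%), adrenal (1.14%) and brainstem (0.926%). Liver therefore combined the highest level of the guide strand with the lowest share of the passenger strand.

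For each rat the log2 ratio of 3p to 5p in a tissue was compared with the mean of that rat's other tissues by an exact permutation test with sign flips over rats (two-sided, adjusted over 22 tissues). With 10 rats the smallest p is 0.00195, and with the 5 rats of testis, ovary and uterus it is above 0.05, so these 3 organs could not pass. The ratio passed in 15 tissues. It was lower in liver by a difference of -1.20 ± 0.30 (log2, SD over 10 rats), in whole blood by -0.72 ± 0.34, in heart by -0.64 ± 0.19 and in biceps femoris by -0.27 ± 0.22, in each case in 10 of 10 rats (adjusted exact permutation p = 0.0072). It was higher in kidney cortex by 0.54 ± 0.22 and in adrenal by 0.39 ± 0.17, also in 10 of 10 rats (adjusted exact permutation p = 0.0072). Cerebellum, cerebrum, brainstem, whole kidney, duodenum, glandular stomach and non-glandular stomach were higher as well, and jejunum and soleus lower. Without the out-of-place libraries 15 tissues passed again, with hippocampus (0.55) in and jejunum out. Kidney medulla (0.05), pancreas (0.01) and ileum (-0.20) did not pass, nor did hippocampus with all its libraries (0.34). When the libraries of a tissue were set against those of all other tissues pooled, without regard to the rat, 6 tissues passed. That test also takes in the differences among the other tissues, so it cannot show what pairing by rat contributes. When any 1 of the 10 rats was left out, 7 to 14 passed, so the count of 15 depends on the test and on the rats included. The duodenum difference was 0.39 with all libraries and 0.21 with the 6 that resembled duodenum. Without the runs of lane 8 of flow cell C2BUMACXX, cerebrum (0.54 with them, 0.32 without) and soleus (-0.29 and -0.24) no longer passed.

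**Figure D3:**
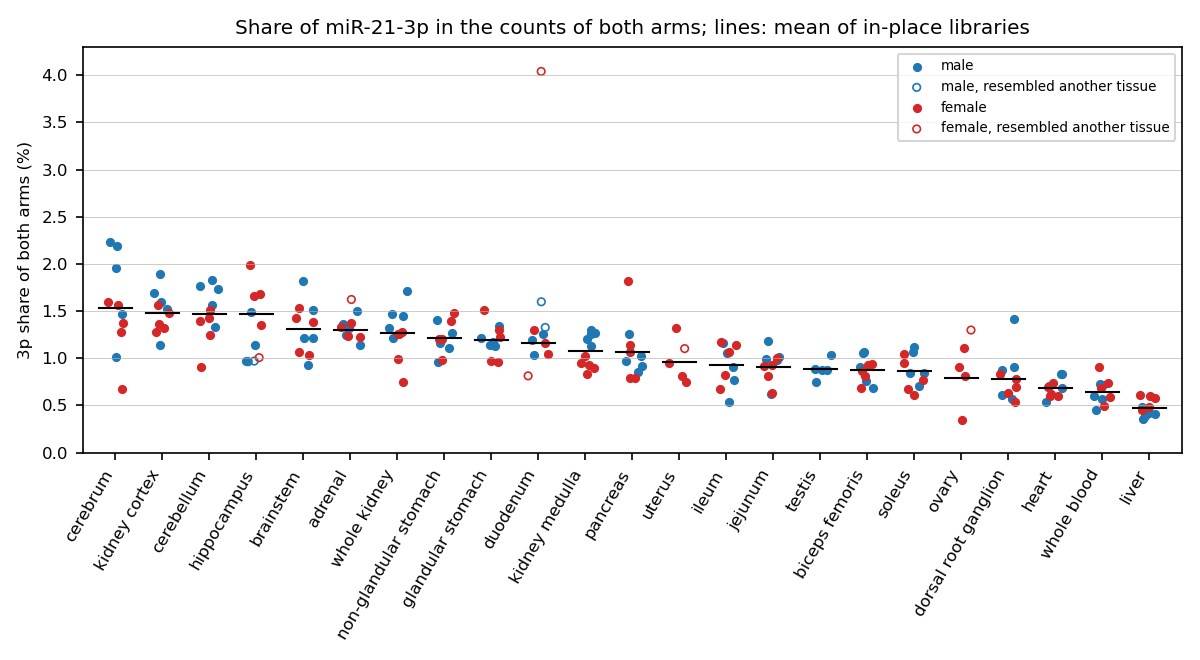
Share of miR-21-3p in the counts of both arms, in percent, for each library by tissue; blue marks males, red females, filled points resembled their labelled tissue, open points are out of place, and lines are the means of the filled points. Liver has the lowest mean, with values between 0.358% and 0.611%, 1 ovary library lies below all of them at 0.345%, and 1 out-of-place duodenum library with few counts lies at 4.04%.

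Among the 20 hairpins with both arms at 2 CPM or more in every tissue mean, the range of the log2 arm ratio over tissues was 1.66 for mir-21, from -7.72 in liver to -6.06 in kidney cortex. It ranked 13 among them, beside a median of 1.73, so the balance of the mir-21 arms varied no more than that of a typical hairpin.

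The 5′ end of miR-21-5p was fixed and its 3′ end was not. Without the runs of lane 8 of flow cell C2BUMACXX, 99.86% of its counts began at the reference base, so the seed was the same in nearly all of them. The most counted forms were, with bases beyond the reference end in capitals:
reference end, 35.5% of counts: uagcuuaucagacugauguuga
2 bases longer, 29.5%: uagcuuaucagacugauguugaCU
1 base longer, 17.6%: uagcuuaucagacugauguugaC
1 base shorter, 8.53%: uagcuuaucagacugauguug
longer by C and an untemplated C, 2.41%: uagcuuaucagacugauguugaCC
longer by C and an untemplated A, 1.41%: uagcuuaucagacugauguugaCA
The added C and CU are the next bases of the hairpin, so these forms can come from another cut of the precursor, and a U added after the C could not be told apart from the templated one. In all, 92.8% of the counts matched the hairpin over their whole length, and 4.89% ended in 1 to 3 bases that it does not have there. A last base read wrongly cannot be told apart from an added base.

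The choice among these ends differed between tissues. In liver the form with 2 more bases was the commonest, at 48.9% ± 2.76 of counts with the reference start (SD, n = 10), and the reference form made up 22.8% ± 1.94. Whole blood came next with 40.1% ± 1.67 and 27.9% ± 2.53. Ileum (31.4%), jejunum (29.0%) and duodenum (27.9%, 6 libraries) followed in the longer form. In pancreas, at the other end, 14.7% ± 1.98 of counts were 2 bases longer and 20.5% ± 1.75 were 1 base shorter, against 5.20% ± 0.757 that were 1 base shorter in liver. No liver library had fewer than 44.8% of the longer form, and no library of pancreas had more than 17.1%. The technical libraries of dorsal root ganglion were close to pancreas in the longer form, at 14.6%.

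**Figure D4:**
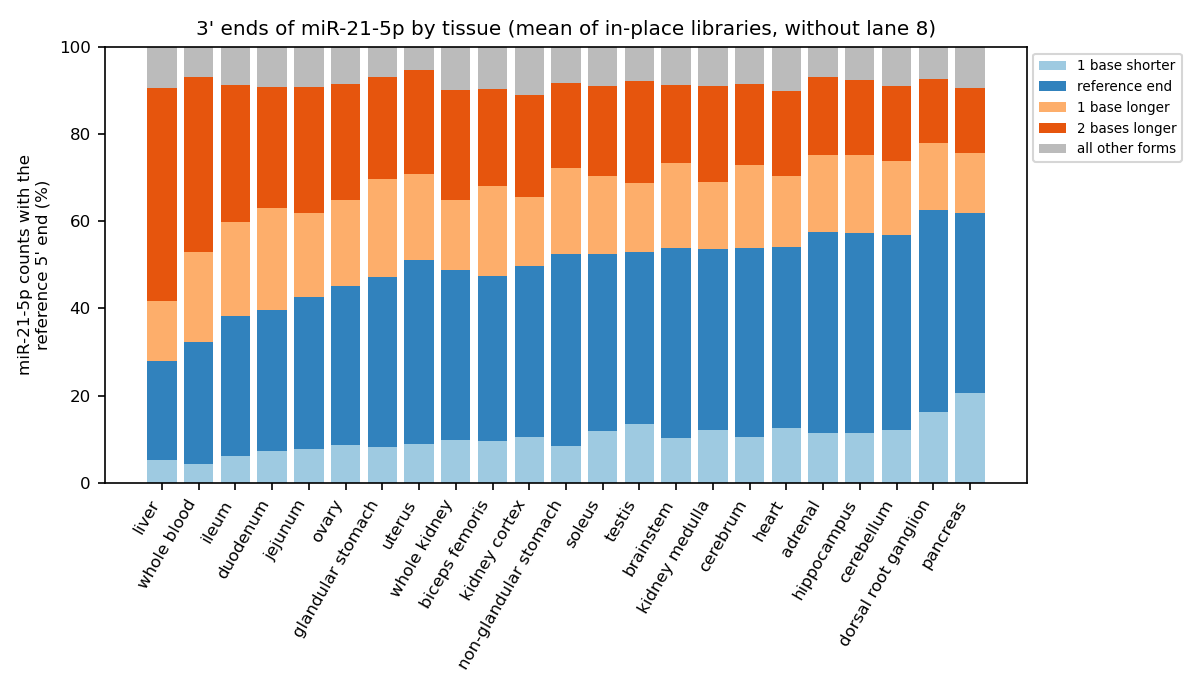
Mean share of miR-21-5p counts with the reference 5′ end that ended 1 base short of, at, 1 base beyond or 2 bases beyond the reference 3′ end, in percent by tissue, without out-of-place libraries and lane 8, with all other forms in grey; tissues are ordered by mean 3′ end. The form with 2 more bases takes 48.9% in liver and 14.7% in pancreas.

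The mean 3′ end, in bases from the reference end over all sequences that match the hairpin, summarises this. It was 1.13 ± 0.061 in liver, 1.02 ± 0.052 in whole blood, 0.82 ± 0.077 in ileum, 0.72 ± 0.088 in jejunum and 0.16 ± 0.058 in pancreas (SD, n = 10 each). Against the mean of the same rat's other tissues it passed in 14 of 22 tissues by the exact permutation test over rats, and in 16 without the out-of-place libraries. It was longer in 10 of 10 rats in liver (by 0.59), whole blood (by 0.48), ileum (by 0.27) and jejunum (by 0.17), and shorter in 10 of 10 rats in pancreas (-0.43), cerebellum (-0.21), heart (-0.16), kidney medulla (-0.12) and non-glandular stomach (-0.06), each with an adjusted exact permutation p of 0.0048. The mean that a tissue was set against includes the long ends of liver and whole blood. Non-glandular stomach, at 0.50, therefore stood mid-order, with a longer end than brainstem (0.45) and a shorter one than kidney cortex (0.52). In CPM, liver had the highest level of miR-21-5p and whole blood one of the lowest, yet they had the longest ends. The place of whole blood in the order of levels rests on the scaling. Over the 23 tissue means, Pearson's r between level and mean end was 0.43.

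Pancreas also had the lowest RNA integrity. Its RIN values lay between 4.9 and 6.8, while the lowest median in another tissue was 7.2 in kidney cortex, and all 10 pancreas RNAs were extracted again. Within tissues Pearson's r between RIN and the mean 3′ end was 0.12 over 195 libraries, and between the means of 22 tissues it was 0.24. The part of RNA integrity in the short ends of pancreas was not tested.

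The mean 3′ end was not used to place the libraries, so it can be read beside the placement. The 3 out-of-place hippocampus libraries had means of 0.64, 0.71 and 0.64, while the other 7 averaged 0.39 and uterus, duodenum and ovary, which those libraries resembled, averaged 0.58, 0.75 and 0.66. The out-of-place adrenal library resembled jejunum and had a mean end of 0.78, against 0.39 in adrenal and 0.72 in jejunum. The duodenum libraries that resembled cerebrum or hippocampus had 0.46, 0.39 and 0.36, against 0.75 in the other duodenum libraries and 0.44 in cerebrum. The duodenum library that resembled adrenal had 0.52, which lay outside both the other duodenum libraries (0.65 to 0.91) and the other adrenal libraries (0.31 to 0.49). The out-of-place uterus library resembled duodenum and had 0.78, against 0.53 to 0.62 in the other uterus libraries. The out-of-place ovary library also resembled duodenum, but its mean end lay within the range of the other ovary libraries (0.54 to 0.85), so the end did not set it apart.

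**Figure D5:**
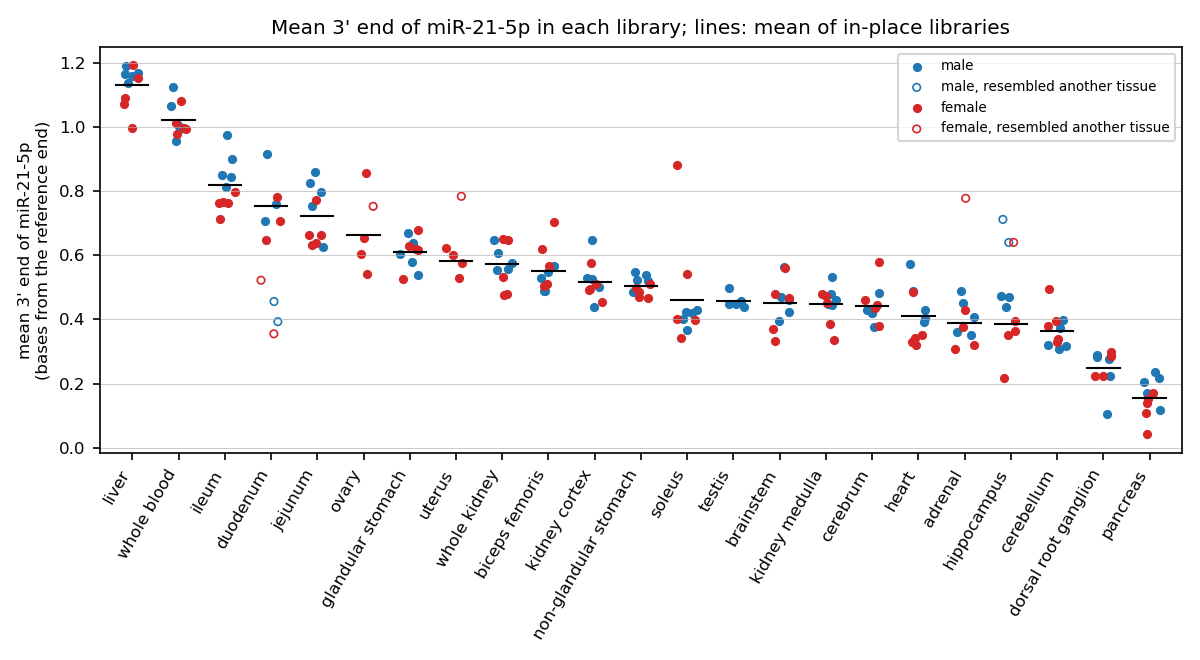
Mean 3′ end of miR-21-5p in bases from the reference end, for each library by tissue without lane 8; blue marks males, red females, filled points resembled their labelled tissue, open points are out of place, and lines are the means of the filled points. Liver (1.13) and whole blood (1.02) lie highest, pancreas (0.16) lowest, and the open points of hippocampus, adrenal, uterus and duodenum lie outside the filled ones.

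The form with exactly 1 more base followed another pattern. Its share of counts with the reference start was highest in duodenum (23.4% in the 6 libraries that resembled it), glandular stomach (22.5% ± 1.39), ileum (21.4% ± 1.41), biceps femoris (20.7% ± 1.37) and whole blood (20.7% ± 2.06), and lowest in liver (13.7% ± 2.33) and pancreas (13.8% ± 1.44). The log2 odds of this form passed the exact permutation test over rats in 14 tissues. They were higher in 10 of 10 rats in glandular stomach (0.40), ileum (0.31), biceps femoris (0.24) and whole blood (0.24), and lower in 10 of 10 rats in liver (-0.53), pancreas (-0.51), kidney medulla (-0.29), kidney cortex (-0.23) and whole kidney (-0.23), each with an adjusted exact permutation p of 0.0048. Liver and pancreas, with the longest and the shortest mean ends, thus shared a low share of the intermediate form.

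Untemplated tails made up between 3.03% of miR-21-5p counts in adrenal (9 libraries) and 6.41% ± 0.57 in whole kidney (n = 10). Their share passed in 12 tissues by the exact permutation test over rats. It was higher in 10 of 10 rats in whole kidney (log2 odds 0.47), kidney cortex (0.37), liver (0.32) and biceps femoris (0.24), and lower in 10 of 10 rats in non-glandular stomach (-0.25), glandular stomach (-0.21) and pancreas (-0.21), each with an adjusted exact permutation p of 0.0061. Tails of C were more frequent than tails of A in kidney cortex (3.15%), liver (3.23%) and duodenum (3.87%, 6 libraries), and tails of A were the more frequent in cerebellum (2.62%), brainstem (2.64%) and hippocampus (2.58%, 7 libraries).

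miR-21-3p had a less fixed start than its partner and 1 leading 3′ end. Its most counted form was 1 base shorter than the RefSeq sequence and took 66.1% of counts, while the RefSeq form itself took 5.00%. Its start was shifted by 1 or 2 bases in 2.83% and 4.24% of counts. A shifted start moves the seed, and the commonest sequence of each start is therefore shown with the seed in capitals:
reference start: cAACAGCAgucgaugggcugu
start 1 base later: aACAGCAGucgaugggcugucu
start 2 bases later: aCAGCAGUcgaugggcugucu
No mature rat sequence of RefSeq carries either of the shifted seeds. The 3′ end went with the start. Of the counts that match the hairpin and start at the reference base, 7.62% ended 1 base beyond the RefSeq end and 84.3% ended 1 base short of it. Of those that start 1 or 2 bases later, 92.6% and 96.8% ended 1 base beyond it. These shares are pooled over libraries and carry no test. By tissue the shifted starts took 10.6% ± 2.26 of miR-21-3p counts in kidney cortex, 9.06% ± 1.65 in whole kidney and 3.66% ± 1.57 in non-glandular stomach (SD, n = 10 each).

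The mean 3′ end of miR-21-3p, taken in libraries with at least 50 of its counts, passed in 7 tissues by the exact permutation test over rats. As for the other arm it was longest in liver, at -0.51 ± 0.075 bases from the RefSeq end and longer than in the same rat's other tissues in 10 of 10 rats (by 0.21, adjusted exact permutation p = 0.0137). It was shorter in non-glandular stomach (-0.14), heart (-0.11), biceps femoris (-0.11) and adrenal (-0.10), and longer in ileum (0.07) and kidney medulla (0.05, which no longer passed without the out-of-place libraries). Whole blood had 2 libraries above 50 counts. Tails of A were on 8.73% of miR-21-3p counts and tails of T, which is U in the RNA, on 2.41%. Liver had the lowest share of A tails (5.85% ± 1.25) and the highest share of U tails (5.15% ± 1.30, n = 10 each).

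Male and female rats were compared in the 19 tissues with 5 of each by exact permutation tests for the level of each arm, the arm ratio and the form with 1 more base. None of the 76 tests passed after adjustment over the tissues of a measure, and 12 had an unadjusted p below 0.05. The smallest p that 5 against 5 allows is 0.00794. The values that reached it included liver, where miR-21-5p was 47486, 40752, 44486, 42648 and 41165 CPM in males and 34222, 37135, 37869, 28915 and 29885 CPM in females, so that the sexes did not overlap (female minus male -0.37 on the log2 scale, exact permutation p = 0.00794, adjusted 0.0754). Kidney medulla also reached it, with 7440, 6527, 5124, 5603 and 5770 CPM in males and 3722, 4840, 5078, 3793 and 2909 CPM in females (-0.60, adjusted 0.0754). There miR-21-3p differed by -0.99 and the arm ratio by -0.41 (exact permutation p = 0.00794 each, adjusted 0.0754 and 0.151).

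Averaged over the 19 tissues of each rat, a value chosen after the tissue results were seen, the female minus male difference of miR-21-5p was -0.15 on the log2 scale (exact permutation p = 0.0556, adjusted over 4 measures 0.111), with a lower female mean in 15 of 19 tissues. Without the out-of-place libraries the difference was -0.14 (exact permutation p = 0.0159, adjusted 0.0476), in 14 of 19 tissues. For miR-21-3p it was -0.18 (exact permutation p = 0.0476, adjusted 0.111) with all libraries and -0.20 (exact permutation p = 0.0238, adjusted 0.0476) without those, in 11 of 19 tissues each. The arm ratio and the form with 1 more base did not pass either way.

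Of 383 single mature names with a tissue mean of 10 CPM or more, those most like miR-21-5p in mean log2(CPM + 1) over the 23 tissues were miR-155-5p (Pearson's r 0.81), miR-92a-1-5p (0.77), miR-223-3p (0.71), miR-193-3p (0.68) and miR-28-3p (0.66). Those most like miR-21-3p were miR-155-5p (0.73), miR-92a-1-5p (0.70), miR-429 (0.68), miR-375-3p (0.68) and miR-200b-3p (0.67). These tissue means share library composition. miR-155-5p and miR-223-3p are known from leukocytes and belong to the leukocyte list of 6 names, whose summed level was 3334 CPM in liver (range 2713 to 4222), 3289 in heart and 241 in non-glandular stomach, with no name of the list below 1 CPM in liver or heart. The level of miR-21-5p was 38456 CPM in liver and 2919 CPM in heart. The part of such cells in the level of miR-21 was not tested.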

How the data were processed

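Small RNA was sequenced on several flow cells as 458 runs of 215 libraries. The authors trimmed adaptors and removed reads under 17 bases with cutadapt 1.4.1, per the labels and methods, aligned reads with miRDeep2 to miRBase precursors, and deposited counts of reads per miRNA name and per sequence, without normalization. Runs were summed to libraries, and 14 runs that repeat a flow cell lane were set aside. Counts of the 2 arms summed over sequences equal those by name. Levels are CPM. The read minimum hides shorter fragments, and sequences that align nowhere were not counted, so isomiR shares cover aligned reads only. The paper states that ligase bias affected how well this sequencing quantified miRNAs, and that isomiRs could be affected too. Its part in the shares of arms, ends and tails was not tested.

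Names were tested with edgeR 4.0.16 (quasi-likelihood, upper-quartile scaling, filterByExpr, tissue as the only term, dorsal root ganglion as 2 pools), with DESeq2 1.42.0 as an alternative. Libraries of the same rat were paired by the rat number in the labels. Deviations from the tissue means had a median correlation of 0.015 within rats and -0.0076 between rats. The pairing therefore rests on the labels, and the profiles gave little sign of it. Arm ratios and ends were tested within rats by exact permutation, with 0.5 counts added, and order and sex between rats (100000 resamples where not exact, log2 of CPM + 1). Adjusted p below 0.05 was called. Ends were placed on the RefSeq hairpin of GRCr8, allowing start shifts of up to 6 bases and tails of up to 3 bases after at least 17 matching ones.

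In lane 8 of flow cell C2BUMACXX, 63.3% of miR-21-5p counts had an extra base before the reference start, against 0.047% in other runs, so its 14 runs were left out for the ends. A library was called out of place where its profile correlated better with another tissue by more than 0.05. Scripts were tested on simulated data. Genes named beside the arms were the 5 most alike over tissues and, in a tissue, the most counted names. The members, lists and tests were chosen with earlier results of these data known.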

Additional observations from a re-analysis of the deposited data

Results flagged for a closer look

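Of 88 groups of 5 or 10 rats (both arms' levels, the 3p share and the mean 3′ end in 22 tissues), 15 held a value at one end that stood apart from the others by Dixon's 95% criterion, where chance flags about 1 in 20 groups. For log2(CPM + 1) of miR-21-5p these were rat 2 in biceps femoris (12.19, highest), rat 9 in brainstem (11.01, lowest), rat 9 in cerebrum (9.17, lowest), rat 8 in non-glandular stomach (12.15, highest) and rat 8 in uterus (13.26, lowest). For miR-21-3p they were rat 2 in biceps femoris (5.69, highest), rat 9 in cerebrum (2.29, lowest), rat 10 in pancreas (5.89, highest) and rat 9 in whole blood (1.77, lowest). The 3p share stood apart at 4.04% in duodenum of rat 7 and 1.82% in pancreas of rat 10. The mean 3′ end stood apart, each time as the longest, at 0.777 bases in adrenal of rat 8, 0.496 in cerebellum of rat 11, 0.580 in cerebrum of rat 9 and 0.880 in soleus of rat 11. The uterus and adrenal libraries of rat 8 and the duodenum library of rat 7 are 3 of the out-of-place libraries.

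Outside the mature arms, 3180 counts over all libraries fell on the first 17 bases of the hairpin, which end where miR-21-5p begins. They were 94.6% of the entry named for the precursor. Liver had 684 of them, a mean of 17.1 CPM, and whole blood had 9, a mean of 0.14 CPM. Relative to miR-21-5p, liver and whole blood differed less, and liver was not the highest tissue. In each 1000000 counts of miR-21-5p there were 447 of the fragment in liver, 151 in whole blood and, at most, 1030 in biceps femoris. They were seen in 10 of 10 liver libraries and in 6 of 10 whole blood libraries. No control sample exists, and the signal lies above the limit that a count of 0 allows. Its length equals the read minimum of 17 bases, so shorter pieces would not have been counted.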

How the results depend on the processing

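With a replicate block for the rat, which leaves out dorsal root ganglion since its pools have no rat, miR-21-5p was called against the rest in 15 of 22 tissues and miR-21-3p in 18. Of the tissues in both fits, hippocampus (0.52 and 0.46) and, for miR-21-5p, duodenum (0.53) lost their call and pancreas gained one (-0.81 and -0.74). The paired fit called 3 and 2 of the 12 pairs, and 3 neighbouring steps passed within rats. Without the replicate block, the libraries of a tissue were set against those of all other tissues pooled, which changes more than the pairing. These tests passed in 6 tissues for the arm ratio, 10 for the form 1 base longer, 5 for the mean 3′ end of miR-21-5p, 5 for its tails and 5 for the mean 3′ end of miR-21-3p. Planned pairs called rose to 5 for miR-21-5p and 6 for miR-21-3p under library totals alone, to 5 and 6 without the out-of-place libraries, and to 4 for miR-21-3p with DESeq2. Upper-quartile scaling gave 10 neighbouring steps. With flow cell D1GBMACXX alone, the arm ratio passed in 8 tissues and the mean 3′ end of miR-21-3p in 2. Leaving out 1 rat at a time gave 7 to 14 tissues for the arm ratio (7 without rat 3 or rat 4, 8 without rat 9 or rat 10, 9 without rat 7) and 4 to 7 for the mean 3′ end of miR-21-3p (4 without rat 2, 4, 7, 10 or 11). With 9 rats fewer sign flips exist and the smallest p is larger. Among values called with all libraries, those that changed sign were non-glandular stomach under library totals alone (-0.88 and -0.58), and without the out-of-place libraries hippocampus against the rest (-3.99 and -3.42) and against cerebrum (-0.43 and -0.55), each for miR-21-5p and miR-21-3p. Other scalings moved the median fold change of all names by up to 0.97 (TMM, whole blood), 0.89 (median of ratios, testis) and 1.76 (library totals, testis). Leaving out lane 8 of flow cell C2BUMACXX, chosen after seeing the data, ended no call of the edgeR fits; it ended those of the arm ratio in cerebrum (0.32) and soleus (-0.24). Depth limits miR-21-3p most, with 12 to 1730 counts in a library.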
